A study of Mus musculus with 3 samples.

Results

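The 10 genes described here encode helix-loop-helix transcription regulators: the inhibitors Id1, Id2, Id3 and Id4, the Notch target repressors Hes1, Hey1, Hey2 and Heyl, and Tcf21 and Twist1, factors of stromal cells. They were chosen by name from a table of 39304 rows as targets of BMP and Notch signalling and as stromal factors, and all 10 were found in it by their Ensembl identifiers. The source was 1 wild type C57BL/6 male mouse, 8 weeks old, whose glomeruli, the capillary tufts where the kidney filters blood, were isolated and dissociated. Single cells were captured in a Fluidigm C1 microfluidic system and typed by qPCR of marker genes, and cDNA of 15 mesangial cells and 15 endothelial cells was pooled. The pool was split into 3 aliquots, each made into 1 library. There is therefore 1 group and no contrast between conditions, and every SD below is over the 3 aliquots (n = 3) and measures library preparation and sequencing, not mice. The cell types were mixed before sequencing, so which of them made a transcript cannot be told, and fewer cells making a transcript and less RNA per cell cannot be told apart.

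Helix-loop-helix proteins bind DNA as dimers through a basic region that lies next to the dimerisation helices. Id proteins have the helices without the basic region, so they hold widely expressed partners, the E proteins, in dimers that do not bind DNA, and their genes are textbook targets of BMP receptors acting through Smad1 and Smad5. Notch receptors are cut after contact with a ligand on a neighbouring cell, and their freed intracellular part joins Rbpj and Mastermind proteins on DNA to switch on Hes and Hey genes, which encode DNA-binding repressors. Both pathways are active in blood vessel walls, in endothelial cells and in the mural cells around them, of which mesangial cells are a specialised kind.

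The coding sequences show how close the genes of each family are, which matters for whether short reads can be assigned to 1 of them. For the 4 Id genes, and for Hes1, Hey2 and Heyl, the ungapped coding window of 120 bases most alike in the genes compared was found (GENCODE M21 transcripts, GRCm38). Capitals mark bases identical in all genes of the set. For the Id genes, 69 of 120 positions (57.5%) were identical in the 4 sequences, which encode the helix-loop-helix.
Id1: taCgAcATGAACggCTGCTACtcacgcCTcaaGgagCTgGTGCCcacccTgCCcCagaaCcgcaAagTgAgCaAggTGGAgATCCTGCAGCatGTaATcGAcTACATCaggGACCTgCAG
Id2: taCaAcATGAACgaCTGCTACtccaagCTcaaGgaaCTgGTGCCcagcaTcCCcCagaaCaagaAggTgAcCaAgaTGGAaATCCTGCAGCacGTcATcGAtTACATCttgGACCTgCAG
Id3: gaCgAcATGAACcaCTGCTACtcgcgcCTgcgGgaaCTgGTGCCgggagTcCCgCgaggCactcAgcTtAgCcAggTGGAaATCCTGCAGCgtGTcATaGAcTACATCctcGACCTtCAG
Id4: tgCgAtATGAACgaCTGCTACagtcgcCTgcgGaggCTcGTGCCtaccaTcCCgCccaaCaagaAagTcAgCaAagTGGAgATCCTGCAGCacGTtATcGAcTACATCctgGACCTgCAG
Positions are counted from the A of the start codon, and the window covered 178 to 297 in Id1, 109 to 228 in Id2, 124 to 243 in Id3 and 196 to 315 in Id4. Id1 and Id2 were the closest pair with 98 of 120 bases alike, and Id3 had 85 or 86 bases in common with each of the others. For Hes1, Hey2 and Heyl, the detected Notch targets, 48 of 120 positions (40.0%) were identical in a window that starts in the basic region.
Hes1: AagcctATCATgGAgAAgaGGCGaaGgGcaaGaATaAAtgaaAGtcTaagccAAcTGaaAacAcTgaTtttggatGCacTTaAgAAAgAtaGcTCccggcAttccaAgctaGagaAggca
Hey2: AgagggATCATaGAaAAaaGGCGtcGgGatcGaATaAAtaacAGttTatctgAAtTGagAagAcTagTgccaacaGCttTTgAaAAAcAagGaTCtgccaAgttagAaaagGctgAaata
Heyl: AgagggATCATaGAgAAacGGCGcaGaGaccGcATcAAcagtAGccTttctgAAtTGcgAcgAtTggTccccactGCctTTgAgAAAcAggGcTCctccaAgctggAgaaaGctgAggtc
The window covered 115 to 234 in Hes1, 157 to 276 in Hey2 and 142 to 261 in Heyl. Hey2 and Heyl were alike at 86 of 120 bases, and Hes1 matched them at 61 and 60. The longest run of identical bases in the coding sequences of any pair within these sets was 17 bases, in Id1 and Id4. No stretch of 50 bases was common to transcripts of any 2 of the 10 genes, on either strand. Outside them, Id2 had such stretches in common with Gm6175, which was listed at 0, and Id4 with A330033J07Rik and Gm49291, which lie on the opposite strand at the same place.

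Of the 10 genes 7 were detected, where 21.7% of all rows were (8537 of 39304). A gene is called detected if each aliquot has at least 1 FPKM, the unit of the table, which divides a gene's fragments by its length in kilobases and by the library's reads in units of 1000000. The detected genes were Id1, Id2, Id3, Hes1, Hey2, Heyl and Twist1, Tcf21 stayed below the limit, and Id4 and Hey1 were listed at 0 in each aliquot. The median of the 10 means was 21.9 FPKM, against 0 over all rows and 10.6 over the 11142 rows above 0. The genes were chosen with earlier results of these data known, so this share is a description. In the plot of levels by aliquot the Id genes span the whole range, from 0 to 719.6 FPKM, and the Hes and Hey genes from 0 to 45.6 FPKM.

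**Figure D1:**
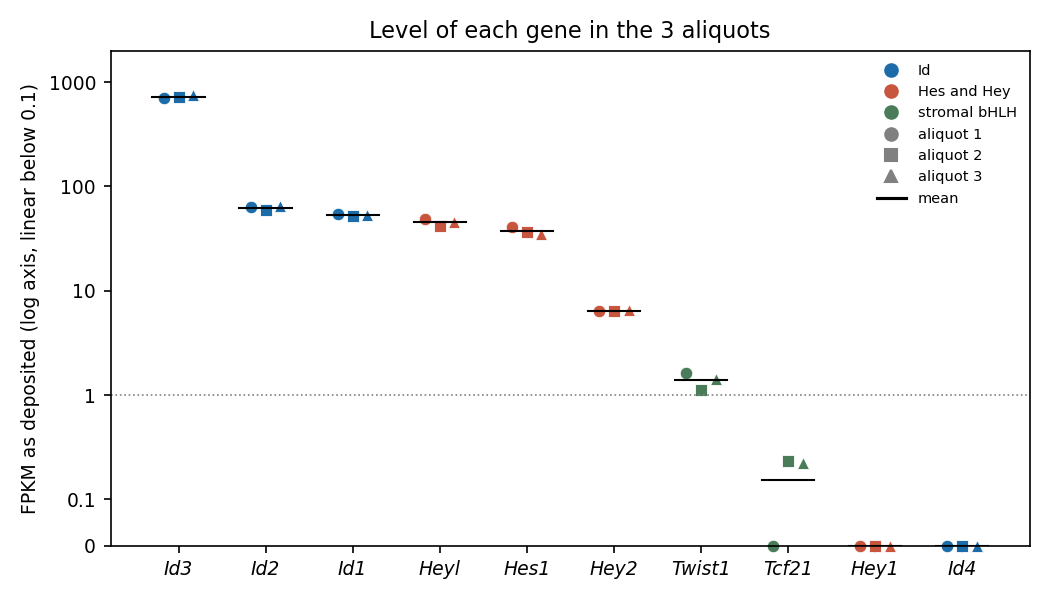
FPKM as deposited (y axis, logarithmic above 0.1 and linear below) of the 10 genes in aliquots 1, 2 and 3 (circle, square, triangle), with the mean as a black line and the detection limit of 1 FPKM dotted. Id3 lies between 697 and 747 FPKM, above all others, and Hey1 and Id4 lie at 0.

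Id3 was the highest of the group. The gene (ENSMUSG00000007872, chromosome 4, 136143497 to 136145755, plus strand, GRCm38) encodes an inhibitor of E proteins that is made in many vascular cells. It had 697, 715 and 747 FPKM in aliquots 1, 2 and 3, a mean of 719.6 ± 25.4 FPKM, and rank 80 among all rows. The values rest on 4868, 5694 and 6266 reads. The next highest value of any other gene of the group was 64.7 FPKM, so the range of Id3 overlaps none of theirs. Id3 made up 86.1% of the summed FPKM of the 4 Id genes.

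Id2 and Id1 followed at close levels. Id2 (ENSMUSG00000020644, chromosome 12, 25093799 to 25097140, minus strand) had 63.2, 59.5 and 64.7 FPKM (62.5 ± 2.68 FPKM). Id1 (ENSMUSG00000042745, chromosome 2, 152736251 to 152737410, plus strand), the Id gene most often used as a readout of BMP signalling, had 54.1, 52.1 and 53.8 FPKM (53.3 ± 1.07 FPKM). The lowest aliquot of Id2, 59.5 FPKM, was above the highest of Id1, 54.1 FPKM, so these ranges did not overlap. Id3 exceeded Id1 by 3.75 ± 0.06 on the log2 scale, a 13.5-fold ratio of levels, with 12.9-fold, 13.7-fold and 13.9-fold in the 3 aliquots. Id1 lay below Id2 by a much smaller margin, with a log2 ratio of -0.23 ± 0.04. This order depends on gene length: the ratio was -0.09 with mean transcript lengths and turned to 0.26 with the longest transcripts. Both rescaled ratios use read numbers of Id2 that the values fix only up to a factor. With its smallest read numbers Id2 had 20.1 FPKM on its longest transcript, against 48.1 FPKM for Id1.

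Id4 (ENSMUSG00000021379, chromosome 13, 48261228 to 48266026, plus strand) was listed at 0, 0 and 0 FPKM, so no ratio to Id3 is given. At its annotated length of 3849 bases, 3 reads would give 0.0853, 0.0747 and 0.0710 FPKM in aliquots 1, 2 and 3. The table also lists at 0 genes that most cells use, such as the mitochondrial ribosome gene Mrps22 and the splicing factor Srsf4, so a zero is reported only as listed. The annotated Id4 gene overlaps 2 genes on the opposite strand, of which A330033J07Rik was listed at 0 as well and Gm49291 is not among the rows used here. Whether that overlap bears on the zero was not tested.

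Among the Notch targets, Heyl and Hes1 were close to each other and above Hey2. Heyl (ENSMUSG00000032744, chromosome 4, 123233556 to 123249875, plus strand), a Hey repressor known from vascular smooth muscle and pericytes, had 48.7, 42.1 and 46.0 FPKM (45.6 ± 3.36 FPKM). Hes1 (ENSMUSG00000022528, chromosome 16, 30064384 to 30067796, plus strand), a repressor that many cell types make in response to Notch, had 40.7, 36.5 and 34.8 FPKM (37.3 ± 3.04 FPKM). The lowest aliquot of Heyl, 42.05 FPKM, was just above the highest of Hes1, 40.7 FPKM, and within each aliquot Heyl was higher. The log2 ratio of Hes1 to Heyl was -0.29 ± 0.10.

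Hey2 (ENSMUSG00000019789, chromosome 10, 30832359 to 30842801, minus strand), known from arterial endothelium and smooth muscle, had 6.43, 6.39 and 6.50 FPKM (6.44 ± 0.0550 FPKM). All 3 aliquots of Hey2 were below the lowest of Hes1 and above the highest of Twist1. Hey1 (ENSMUSG00000040289, chromosome 3, 8663359 to 8667256, minus strand), a Notch target of endothelial cells, was listed at 0 in each aliquot, and no ratio to Heyl or Hey2 is given. No other annotated gene overlaps Hey1. At its longest transcript of 2423 bases, 3 reads would give 0.135, 0.119 and 0.113 FPKM. Its mean transcript length, 1253 bases, is shorter and would give higher values. The 3 Hey genes thus ranged from a value listed at 0 to 45.6 FPKM.

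The stromal factors were low. Twist1 (ENSMUSG00000035799, chromosome 12, 33957671 to 33959829, plus strand), a regulator of embryonic mesenchyme, had 1.62, 1.13 and 1.41 FPKM (1.39 ± 0.249 FPKM) from 24, 19 and 25 reads. All its aliquots passed the limit of 1 FPKM, and none passed 5 FPKM. Tcf21 (ENSMUSG00000045680, chromosome 10, 22817281 to 22820174, minus strand), which acts in kidney stroma and in podocytes, was listed at 0, 0.235 and 0.223 FPKM. These values are 0, 3 and 3 reads, a total of 6 with an exact 95% Poisson interval of 2.20 to 13.1 that covers counting error only. Because 1 aliquot was at 0, no ratio of Tcf21 to Twist1 is given. Gm10824, an antisense gene, overlaps Tcf21, and whether the counting used strand is not given in the sources used here, so reads of the pair cannot be told apart.

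The levels of different genes depend on the gene length by which reads were divided. The lengths used here were 764 bases for Id3, 715 for Hes1 and 1845 for Heyl. Their longest annotated transcripts have 1278, 1468 and 4537 bases. For Heyl the length implied by the deposited values lies within 1 base of the mean over all annotated transcripts (1844.67), shorter ones included. For Id3 the values gave 382 bases, and the multiple 764 was taken because it matches the mean (764.33), so its match is no observation. Rescaled to the longest transcript, Id3 had 430.2 FPKM, Id1 48.1, Id2 40.3, Heyl 18.5, Hes1 18.2, Hey2 6.44 and Twist1 1.38 FPKM. Id1 then stood above Id2, a log2 ratio of 0.26 in place of -0.23, and Hes1 and Heyl came within 0.03 of each other on the log2 scale. Id3 remained the highest and kept a log2 ratio of 3.16 to Id1. Per 1000000 reads, with no length at all, Heyl (83.9) stood second after Id3 (551) and above Id2 (79.4), Id1 (55.8), Hes1 (26.6) and Hey2 (16.4). This order uses read numbers of Id2, Id3 and Hey2 that are open to a factor, and with the smallest ones Id3 (275) stayed first, Id2 (39.7) fell below Id1 and Hey2 had 8.22.

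**Figure D2:**
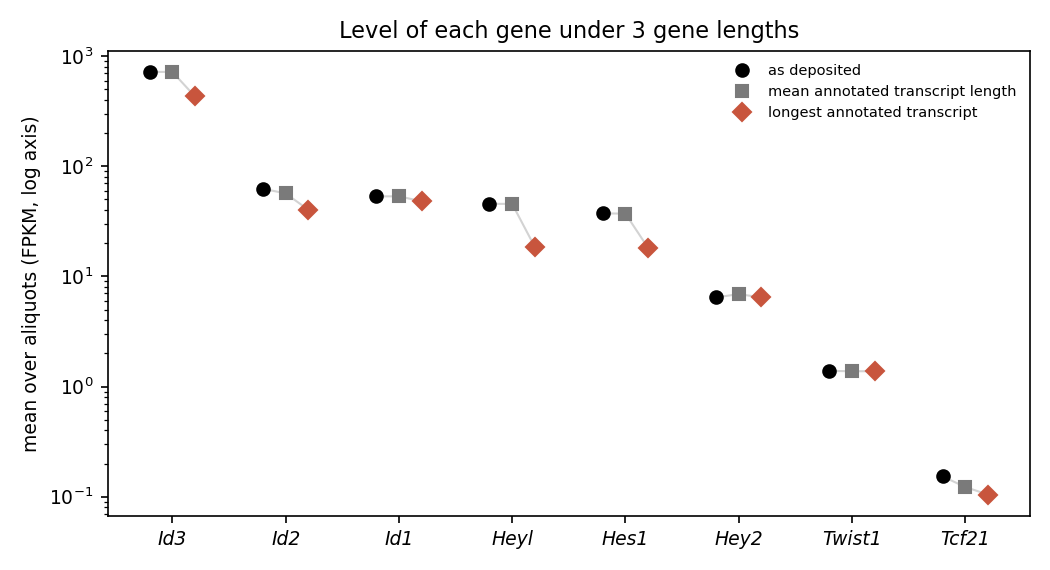
Mean FPKM over the aliquots (y axis, logarithmic) of the 8 genes above 0 as deposited (black circle), rescaled to the mean annotated transcript length (grey square) and to the longest annotated transcript (red diamond). Heyl falls from 45.6 to 18.5 and Hes1 from 37.3 to 18.2 FPKM with the longest transcript, while Id3 stays the highest at 430.2 FPKM.

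The read numbers of Id2, Id3 and Hey2 carry a factor that the values alone do not fix. The smallest whole read numbers were 367, 394 and 451 for Id2, 2434, 2847 and 3133 for Id3, and 75, 85 and 91 for Hey2, at implied lengths of 635, 382 and 1275 bases. Multiples of these lengths, 1270, 764 and 2550 bases, match the median, mean and longest annotated transcript in turn, and their reads are used here. With the smallest numbers, Id3 on its longest transcript would have 215 FPKM, Id2 20.1 FPKM and Hey2 3.22 FPKM, and Id3 would still be the highest of the group.

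The spread over aliquots was then set against counting error, the only question a test can ask of aliquots of 1 pool. Of the 7 genes with at least 30 reads, 0 differed between aliquots beyond sampling noise (chi-square test of reads against library totals, Benjamini-Hochberg adjusted over 9119 genes), where 1.10% of all genes tested did (100 genes, and 2 without aliquot 1). At an unadjusted p under 0.05 there were 2, Id3 and Heyl, and 11.5% of all genes tested. With the read numbers used, Id3 rose above counting error most, with a coefficient of variation (CV) of 3.54% against 1.34% from counting alone (chi-square test, unadjusted p = 0.00092, adjusted p = 0.0687). Without aliquot 2 its adjusted p was 0.0299 (chi-square test, not run with the smallest read numbers). Over the other alternatives the adjusted p of Id3 ranged from 0.0626 to 0.712, the highest without aliquot 3. Heyl had a CV of 7.37% against 3.42% (chi-square test, adjusted p = 0.254, and 0.148 to 0.718 over the alternatives). With the smallest whole read numbers Heyl, not Id3, rose above counting error most (chi-square test, adjusted p = 0.258, against 0.373 for Id3). Hey2, with 502 reads, varied by 0.854% where counting alone gives 7.73%. Twist1 had 18.0% against 21.0% and Id1 2.01% against 4.19%. With the read numbers used, Id2 (4.29% against 3.52%) and Hes1 (8.16% against 6.08%) also lay above counting alone. Genes of 10 to 100 FPKM had a median CV of 4.05%, and Id1 (2.01%) lay below it, Id2 (4.29%) close to it and Hes1 (8.16%) and Heyl above it.

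**Figure D3:**
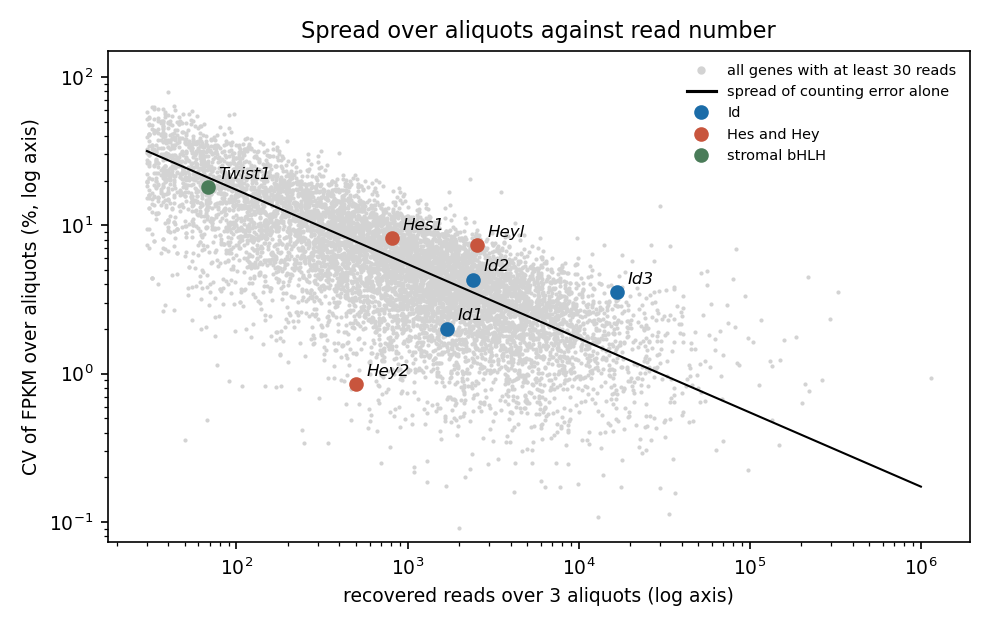
Coefficient of variation of FPKM over the 3 aliquots (y axis, logarithmic) against recovered reads (x axis, logarithmic) for all genes with at least 30 reads (grey) and the 7 genes described (coloured by family), with the spread that counting error alone gives as a black line. With the read numbers used, Id2, Id3, Hes1 and Heyl lie above the line. Id1 and Twist1 lie below it and Hey2 far below it at 0.854%.

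The BMP pathway upstream of the Id genes was detected for 18 of 30 listed genes (60.0%, against 21.7% of all rows), with a median of 4.38 FPKM. Ligands were low, with 2 of 7 detected: Bmp2 had 8.15 ± 0.0952 FPKM and Bmp7 1.80 ± 0.274 FPKM, Bmp4 followed with 0.0735 FPKM from 3 reads, and 4 were listed at 0. Of 8 receptors 6 were detected, led by the endothelial co-receptor Eng (286 ± 4.01 FPKM), the type II receptor Bmpr2 (66.8 ± 1.60 FPKM) and the type I receptor Bmpr1a (30.5 ± 1.45 FPKM). Of 6 Smad genes 5 were detected. The common partner Smad4 had 75.5 ± 0.923 FPKM, the signal carrier Smad5 60.7 ± 0.325 FPKM and the inhibitory Smad6, itself a BMP target, 54.9 ± 1.35 FPKM. Antagonists and modulators had 5 of 9 detected, and 4 were listed at 0. The ubiquitin ligase Smurf2 had 41.6 ± 1.43 FPKM, the pseudoreceptor Bambi 7.62 ± 0.801 FPKM and the secreted Twsg1 7.56 ± 0.481 FPKM. Id3 lay above every gene of this list, with the deposited lengths and with the longest transcripts.

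The Notch pathway was also detected for 18 genes, of 32 listed (56.2%, against 21.7% of all rows), with a median of 9.24 FPKM. Among 5 ligands Jag1 had 83.9 ± 0.853 FPKM and the endothelial ligand Dll4 13.7 ± 1.16 FPKM, Dll1 had 0.624 ± 0.226 FPKM, and 2 were listed at 0. All 4 receptors were detected, with Notch1 at 18.0 ± 0.784 FPKM, Notch2 at 12.7 ± 0.273 FPKM and Notch3, the mural cell receptor, at 10.2 ± 0.541 FPKM. Of 13 processing genes 9 were detected, led by the gamma-secretase gene Psen2 (239 ± 2.19 FPKM), the protease Adam10 (129 ± 2.14 FPKM) and the ligand-activating Mib1 (70.06 ± 1.46 FPKM). In the nuclear complex 3 of 4 were detected: Maml2 with 45.3 ± 1.47 FPKM, Maml3 with 12.4 ± 0.109 FPKM and the DNA-binding Rbpj with 8.25 ± 0.262 FPKM. Of the other targets and Hes genes 0 of 6 were detected. Hes6 had 1.14, 1.36 and 0.948 FPKM, with 1 aliquot under the limit and a mean above it, Nrarp, a feedback inhibitor, 0.102 FPKM from 8 reads, and the other 4, Hes2, Hes3, Hes5 and Hes7, were listed at 0.

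**Figure D4:**
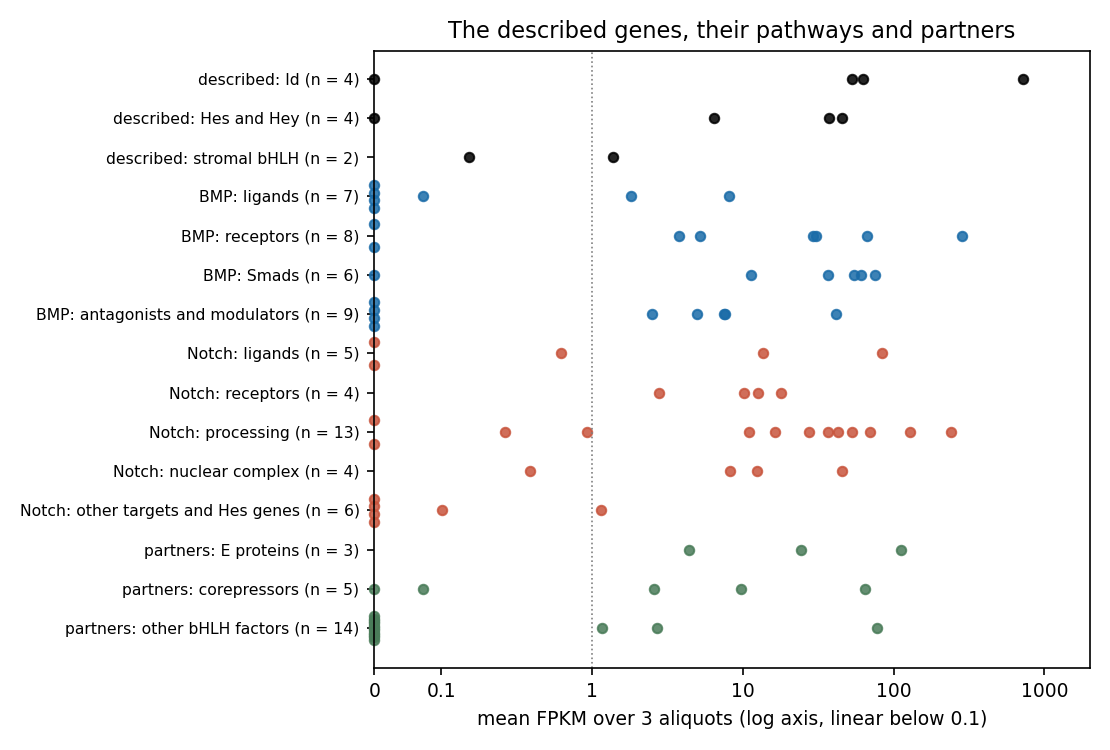
Mean FPKM over the aliquots (x axis, logarithmic above 0.1 and linear below, limit of 1 FPKM dotted) of the 10 genes described (black) and of the BMP genes (blue), Notch genes (red) and helix-loop-helix partners (green), each point 1 gene. Id3 lies right of every other point, and of the 14 other helix-loop-helix factors 11 sit at 0.

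Partners and relatives of these proteins were then listed, and 8 of 22 with a row were detected (36.4%, against 21.7% of all rows). All 3 E proteins were detected: Tcf4 had 116, 112 and 108 FPKM, Tcf12 24.4 ± 1.45 FPKM and Tcf3 4.39 ± 0.337 FPKM. The summed Id level exceeded the summed E protein level 5.57-fold, 5.83-fold and 6.42-fold in aliquots 1, 2 and 3, a log2 ratio of 2.57 ± 0.11. This is a ratio of transcript levels per length. It was 3.47 on the log2 scale with the longest transcripts and 2.09 with mean transcript lengths. Both rescaled values use read numbers of Id2 and Id3 that are open to a factor. Of 5 genes listed for the Tle corepressor family, Aes included, 3 were detected, Tle1 with 64.9 ± 0.352 FPKM, Aes with 9.75 ± 0.811 FPKM and Tle3 with 2.58 ± 0.599 FPKM. Of 14 other helix-loop-helix factors with a row, 2 were detected and 11 were listed at 0. Bhlhe41, a repressor related to the Hes family, had 78.1 ± 2.36 FPKM, Tal1, a factor of blood and endothelial cells, 2.72 ± 0.221 FPKM, and Tcf23 1.17 ± 0.209 FPKM with 1 aliquot under the limit. Twist2, the close relative of Twist1, was among those at 0, named after its value was seen.

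Markers of the pooled cell types and of other cells were measured beside these genes. All 9 mesangial markers were detected, with a summed level of 9045 to 9475 FPKM over the aliquots. As deposited they ran from Gata3 and Serpine2 at the top to Des (114 FPKM) and Pdgfrb (70.2 FPKM). Gata3 had 3232, 2877 and 2867 FPKM, a spread beyond sampling noise (chi-square test, adjusted p = 6.5e-53). With the longest transcripts Gata3 had 851.5 FPKM, below Serpine2 at 1264 FPKM. All 9 endothelial markers were detected, with a summed level of 2612 to 2664 FPKM, from Emcn and Plat to Tek (42.2 FPKM) and Cdh5 (31.8 FPKM). Of 9 podocyte markers 7 were detected, with a summed level of 289 to 307 FPKM. Wt1 had 101 FPKM and Podxl 75.9 FPKM, while Ptpro and Lmx1b had 0.887 and 0.237 FPKM. Tcf21, which podocytes are known to make, had its 6 reads beside these levels, and the part of podocyte RNA in its value was not tested. Smooth muscle and renin cell markers were detected for 5 of 6, with 1568 to 1664 FPKM in sum, from Myl9 (1471 FPKM), most of the sum, and Acta2 (72.8 FPKM) to Ren1 (4.55 FPKM) and Cnn1 at 0. Of 5 fibroblast markers Pdgfra alone was detected, with 48.1 FPKM, and Lum, Dcn and the collagen genes Col1a1 and Col3a1 were at 0, beside Twist1 at 1.39 FPKM. All 3 parietal epithelial and all 4 macrophage markers were listed at 0.

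Promoter windows show which pathway motifs lie near the start of a gene that was detected and of one that was not. RefSeq windows on GRCm38.p6 of the 250 bases before the start were matched for 6 of the 10 genes: Id2, Id3, Id4, Hey2, Tcf21 and Twist1. The RefSeq start is the GENCODE start given above for Twist1 and differs from it for the other 5, and the windows of Id2 and Id3 lie within the GENCODE genes. Searched on both strands were GGCGCC, a GC-rich element that BMP Smads bind, and TGGGAA, the core of the Rbpj site. Sequences are written on the gene's own strand, matches are in capitals, and a match of TGGGAA on the other strand reads TTCCCA. No matches overlap in the windows printed. Shown are Hey2, a Notch target with 6.44 FPKM (chr10:30842784-30843033, minus strand), and Id4, listed at 0 (chr13:48260866-48261115, plus strand).
Hey2: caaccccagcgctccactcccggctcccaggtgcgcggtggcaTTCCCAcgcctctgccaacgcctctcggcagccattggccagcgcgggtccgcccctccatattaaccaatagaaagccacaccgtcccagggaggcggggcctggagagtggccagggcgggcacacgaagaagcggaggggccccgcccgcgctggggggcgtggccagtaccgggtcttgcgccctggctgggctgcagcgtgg
Id4: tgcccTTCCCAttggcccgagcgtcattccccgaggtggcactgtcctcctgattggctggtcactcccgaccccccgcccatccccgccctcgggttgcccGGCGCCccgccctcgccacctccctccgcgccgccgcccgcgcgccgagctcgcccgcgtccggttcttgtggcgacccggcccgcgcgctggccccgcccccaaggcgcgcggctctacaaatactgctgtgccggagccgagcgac
Hey2 had 1 match to TGGGAA and 0 to GGCGCC, and Id4 had 1 match to each. TGGGAA matched in 3 of the 6 windows, the third being that of Tcf21, and in 21.6% of 32851 windows of all genes. GGCGCC matched in 2 of the 6, Id4 and Id2, and in 9.59% of all windows. The window of Id3, the most abundant of the group, held neither sequence. G and C made up 75.6% of the Id4 window, 71.6% of that of Hey2, 62.8% of those of Id2 and Id3, 62.4% of that of Twist1 and 52.4% of that of Tcf21, against a median of 52.4% over all windows.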

How the data were processed

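The authors deposited 1 FPKM value per gene for each of 3 aliquots of 1 cDNA pool. Per the submitters' processing notes, TopHat2 2.0.12, HTSeq 0.6.1 and GRCm38 were used, and their settings, annotation release, gene length and strand use were not given in the sources used here. Identifiers were matched to symbols for 37607 of 39304 rows, and coordinates and transcript lengths were taken from GENCODE M21 (GRCm38), possibly another release than the authors used.

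Low FPKM step in whole multiples of 1 read. Library totals were those implied most often when 1 read was assumed for genes with 1 annotated transcript: 9141422, 10427635 and 10976563 reads. Each gene's length was the smallest whole number from 50 to 20000 bases at which the reads of all aliquots came out whole to 0.0001, or its multiple within 1 base of the mean, median or longest transcript (401 genes). This gave reads for 11141 of 11142 genes above 0, at 97.0% of each total. Since the unit is FPKM, the only count statistics were a chi-square test and Poisson intervals on the recovered reads. The chi-square test took genes with at least 30 reads and an adjusted p threshold of 0.05 (Benjamini-Hochberg). It was also run on simulated Poisson counts, which meet its own assumption, so that run does not cover amplified cDNA. Reads of amplified cDNA are not independent molecules, so the test, intervals and limits of 3 reads cover counting error only.

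The genes and lists were chosen with earlier results of these data known. Named were the 10 genes, the 3 highest of each pathway class, and the 2 highest and 2 lowest of each marker list. No genes were named for a like pattern, because aliquots of 1 pool hold none. Alternatives were detection limits, gene lengths, a pseudocount, scaling to TPM, read minimums, library totals and leaving out each aliquot. Python 3.11.15, pandas 2.3.3 and scipy 1.17.1 were used. Coding sequences were compared for 7 of the 10 genes.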

Additional observations from a re-analysis of the deposited data

How the results depend on the processing

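Of the 10 genes, 7 were detected at 0.5 FPKM, by the mean, with the longest transcripts and without any 1 aliquot, and 6 at 5 FPKM, where Twist1 was lost. The share of all rows, 21.7%, was computed only for 1 FPKM in every aliquot as deposited, so these counts have no share beside them. At 5 FPKM the detected partners fell from 8 to 5, while the BMP and Notch counts ranged from 14 to 18 and from 17 to 20 over all alternatives. The median level of the 10 genes was 21.9 FPKM as deposited, 12.3 FPKM with the longest transcripts and 36.3 scaled to TPM, and 21.04 to 22.5 FPKM without 1 aliquot. Gene length changed the ratios most. With the longest transcripts the log2 ratio of Id3 to Id1 was 3.16, that of Id1 to Id2 reversed to 0.26, that of Hes1 to Heyl was -0.029 and that of the Id sum to the E protein sum 3.47. With mean transcript lengths the ratio of Id1 to Id2 was -0.088 and that of the sums 2.09. The rescaled ratios with Id2 or Id3 use read numbers that are open to a factor. Without 1 aliquot the ratios were 3.73 to 3.79, -0.25 to -0.21, -0.33 to -0.23 and 2.51 to 2.61 in the same order, and a pseudocount of 1 FPKM moved none by more than its SD. The number of genes beyond sampling noise was 0 to 1 of 7 without 1 aliquot, the 1 being Id3 without aliquot 2. That call used the larger read numbers of Id3, and leaving out aliquots was not run with the smallest ones. Under every other alternative the number was 0, including the smallest whole read numbers, chosen after seeing the data. Over all genes the calls fell from 100 to 2 without aliquot 1 and to 68 without aliquot 3. No paired analysis was possible because all samples belong to 1 group. The values of Twist1 and Tcf21 rest on 68 and 6 reads.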
